A study of Mus musculus with 8 samples.

Results

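Among the 33212 genes of the count table, 10 were followed in liver RNA from Nnmt KO and control mice. They were picked by name as transcriptional targets of p53 and genes of apoptosis: Cdkn1a, Ccng1, Btg2 and Sesn1, which slow the cell cycle or growth, Mdm2 and Phlda3, which act in feedback on p53 and on Akt, Bbc3 and Bax, which act at the mitochondrion, and the death receptor genes Fas and Tnfrsf10b. All 10 had enough counts to be tested. The libraries were 4 from Nnmt KO mice and 4 from control mice of the C57BL/6 strain, lettered a to d within each genotype because the columns of the table carry no mouse number. Nnmt KO mice (Alb-Cre::Nnmt flox/flox, Nnmt LKO in the labels) carry a Cre recombinase under the albumin promoter, which is active in hepatocytes. The study calls the knockout hepatocyte-specific, and which other liver cells keep the gene was not measured here. The labels call the control mice WT, and the study's text gives them as Nnmt flox/flox without Cre. Both genotypes received the MCD diet (methionine- and choline-deficient), which injures the liver, for 8 weeks, so these data hold no liver on a normal diet. The study's methods give the mice on this diet as male, and their age is not given in the sources used here.

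The transcription factor p53 is kept low by the ubiquitin ligase Mdm2 and becomes stable after DNA damage and other stress. It binds DNA as a tetramer, each pair of subunits at a 10-base half-site, and turns on genes that stop the cell cycle, repair DNA or start apoptosis. In the liver, hepatocytes express p21, the product of Cdkn1a, after injury and in chronic liver disease, and other transcription factors also act on Cdkn1a, Btg2, Bbc3 and Fas.

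Total counts were 75020072 to 87934362 per library (median 82750174.5), so that 3 counts stood for 0.0341 to 0.04 CPM (counts scaled to the library total) before TMM scaling. All other CPM values carry the TMM factors, which were 0.876 to 1.21. Counts of libraries of one genotype differed beyond sampling noise (chi-square per degree of freedom 39.9 to 248), so none was a copy of another. The labels number the samples but do not say more of their source, so p-values measure the spread between these samples. Nnmt, the targeted gene, was at 31.8, 44.8, 68.9 and 83.0 CPM in Nnmt KO libraries a to d and at 112, 224, 134 and 84.9 CPM in control libraries a to d. Every Nnmt KO library lay below every control library, with Nnmt KO d and control d close to each other. Its log2 fold change was -1.28 (SE 0.33, unadjusted p = 0.00256, adjusted p = 0.123 by edgeR's quasi-likelihood test). The 6 hepatocyte marker genes summed to 61831 to 111032 CPM over the 8 libraries, and none was at 0.

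Of the 10 genes, 6 were higher and 1 was lower in the Nnmt KO group at an unadjusted p under 0.05 (edgeR's quasi-likelihood test). Over all 15291 genes tested, 5.45% were higher and 7.13% lower at that limit. The 10 genes were chosen with earlier results of these data known. The 6 higher genes were Phlda3, Cdkn1a, Tnfrsf10b, Ccng1, Btg2 and Sesn1, and the lower gene was Bbc3. For Phlda3, Cdkn1a and Tnfrsf10b every Nnmt KO library was above every control library, as for 3.34% of all genes, and for Bbc3 every Nnmt KO library was below, as for 4.81% (8.16% in either direction). Phlda3, Cdkn1a and Bbc3 also had an unadjusted p under 0.01, as 4.51% of all genes did. None of the 10 genes passed an adjusted p of 0.05 in edgeR, which 49 of all genes (0.32%) did. DESeq2's Wald test put Bbc3, Phlda3 and Cdkn1a past that limit, together with 502 genes in all (3.28%). The median log2 fold change of the 10 genes was 0.41, beside 0.02 over all genes. Because whole liver was sequenced, a lower number of cells of one type and less RNA per cell cannot be told apart.

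**Figure D1:**
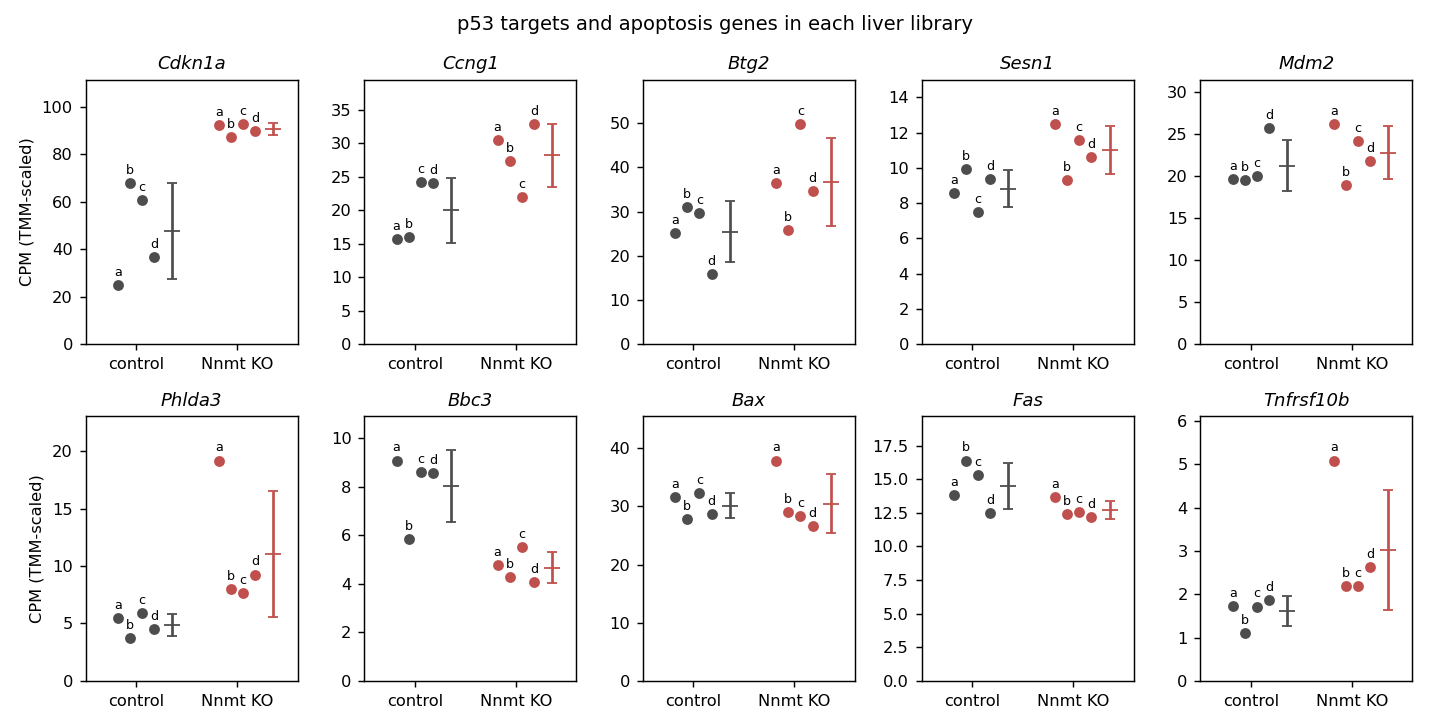
Normalised expression of the 10 genes in each library, in CPM on a linear axis from 0, for control mice (grey) and Nnmt KO mice (red). Letters are libraries and bars are the mean ± SD (n = 4). Cdkn1a lay between 87.4 and 92.9 CPM in Nnmt KO and between 25.0 and 68.0 CPM in control libraries, and Nnmt KO library a stood above the others of its genotype for Phlda3 and Tnfrsf10b.

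The DNA before the start of these genes was read from RefSeq's table for GRCm38.p6, the build named mm10 in the submitters' processing notes. It held 13 windows for 9 of the 10 genes and none for Tnfrsf10b. Each window of 250 bases before a start was searched for the p53 half-site, a 10-base motif that is its own reverse complement, so that both strands were read at once. The motif was in 5 windows, of 5 different genes. Over all genes, 2341 of 32851 windows did (7.13%), and 85 (0.259%) held it more than once. The 5 windows are shown because they are the ones with the motif, which is in capitals, each 5′ to 3′ on the gene's own strand.
Cdkn1a: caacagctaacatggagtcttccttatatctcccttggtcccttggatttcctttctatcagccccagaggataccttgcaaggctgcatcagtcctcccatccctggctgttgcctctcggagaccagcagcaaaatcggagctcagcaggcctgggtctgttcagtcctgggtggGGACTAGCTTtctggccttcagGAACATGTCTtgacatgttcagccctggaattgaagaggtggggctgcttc
Ccng1: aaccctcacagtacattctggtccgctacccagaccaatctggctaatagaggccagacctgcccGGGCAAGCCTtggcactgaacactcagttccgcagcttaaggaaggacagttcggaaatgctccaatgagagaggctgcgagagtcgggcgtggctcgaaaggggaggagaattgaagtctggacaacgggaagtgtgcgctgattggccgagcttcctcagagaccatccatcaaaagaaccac
Mdm2: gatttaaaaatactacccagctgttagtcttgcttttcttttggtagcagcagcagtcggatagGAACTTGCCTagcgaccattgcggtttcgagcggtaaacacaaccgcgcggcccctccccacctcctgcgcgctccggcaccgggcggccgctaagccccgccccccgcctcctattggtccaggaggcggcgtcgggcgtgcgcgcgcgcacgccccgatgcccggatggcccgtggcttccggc
Sesn1: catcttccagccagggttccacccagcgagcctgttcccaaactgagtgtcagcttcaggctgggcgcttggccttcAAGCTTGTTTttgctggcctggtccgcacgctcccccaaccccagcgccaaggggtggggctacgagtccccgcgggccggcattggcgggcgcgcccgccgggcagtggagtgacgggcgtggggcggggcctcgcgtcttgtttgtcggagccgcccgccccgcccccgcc
Bax: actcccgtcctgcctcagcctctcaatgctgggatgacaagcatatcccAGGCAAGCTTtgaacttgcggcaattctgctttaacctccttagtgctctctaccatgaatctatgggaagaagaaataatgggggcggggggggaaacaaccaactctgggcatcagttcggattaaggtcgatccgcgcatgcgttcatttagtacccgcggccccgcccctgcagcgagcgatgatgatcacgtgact
The window of Cdkn1a was chr17:29090729-29090978 on the plus strand, the upstream one of its 2 annotated starts, with half-sites beginning 73 and 51 bases before that start. Those of Ccng1 (chr11:40755287-40755536), Mdm2 (chr10:117710759-117711008) and Bax (chr7:45466899-45467148) were on the minus strand, with a half-site 185, 186 and 201 bases before the start. The Sesn1 window (chr10:41887189-41887438, plus strand) belongs to a start within the gene, with the half-site 173 bases before it. The other windows of Cdkn1a and Sesn1 and those of Phlda3, Bbc3, Btg2 and Fas did not hold these letters. A stretch just after each start was looked up in the gene's GENCODE M21 transcripts. It was found for every window of Cdkn1a, Ccng1, Mdm2, Sesn1 and Bax, and for none of Phlda3, Bbc3, Btg2 and Fas. For the latter genes the windows may thus not lie before a start of that annotation. A match in a window is a description of its letters, and binding was not measured here. Only exact matches were marked, so near matches, also those beside the marked stretches of Cdkn1a, were not looked for. Of the 5 genes with a match, Cdkn1a, Ccng1 and Sesn1 were among the 6 higher genes, and Mdm2 and Bax were not. Of the genes with windows but no match, Phlda3 and Btg2 were among the higher genes, and Bbc3 and Fas were not. Tnfrsf10b, also higher, had no window. A relation between the motif and the genotype difference was not tested.

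Cdkn1a encodes p21, an inhibitor of cyclin-dependent kinases and the best-known target of p53 in cell cycle arrest. It was at 92.5, 87.4, 92.9 and 89.8 CPM in Nnmt KO libraries a to d and at 25.0, 68.0, 60.8 and 36.8 CPM in control libraries a to d. The Nnmt KO libraries were nearly alike and all above the controls, which were spread widely. The coefficient of variation was 2.84% in Nnmt KO and 42.2% in control mice (n = 4 each). The means were 47.7 ± 20.1 CPM for control and 90.6 ± 2.58 CPM for Nnmt KO (SD, n = 4), a fold of 1.90. On the log2 scale the difference was 0.93 (SE 0.25, unadjusted p = 0.00384, adjusted p = 0.15 by edgeR's test). DESeq2's Wald test gave an adjusted p of 0.0148. The gene (ENSMUSG00000023067) lies at chr17:29090976-29100727 on the plus strand. A transcript model of uncertain type on the opposite strand, AC167363.2, covers 273 of its 3553 exon bases, and whether the counting used strand is not given in the sources used here.

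Ccng1, which encodes cyclin G1, a target of p53 that recruits a phosphatase to Mdm2, was at 30.5, 27.4, 22 and 32.9 CPM in Nnmt KO libraries a to d. In control libraries a to d it was at 15.7, 15.9, 24.3 and 24.0 CPM. Nnmt KO library c lay below control libraries c and d, and the others lay above every control. Between the genotypes the log2 fold change was 0.50 (SE 0.18, unadjusted p = 0.0185, adjusted p = 0.28 by edgeR's test), and the Nnmt KO mean was 28.2 ± 4.72 CPM (SD, n = 4), 1.41 times that of control.

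Btg2, an antiproliferative gene that promotes mRNA deadenylation, was at 36.5, 25.9, 49.8 and 34.7 CPM in Nnmt KO libraries a to d and at 25.1, 31.1, 29.8 and 15.8 CPM in control libraries a to d. Nnmt KO library b lay among the controls. Its log2 fold change was 0.53 (SE 0.23, unadjusted p = 0.0404, adjusted p = 0.367 by edgeR's test). It was 0.35 without Nnmt KO library c, the highest (unadjusted p = 0.148 by edgeR). Sesn1 encodes sestrin 1, which restrains mTORC1 and oxidative damage. It was at 12.5, 9.31, 11.6 and 10.6 CPM in Nnmt KO libraries a to d and at 8.58, 9.93, 7.48 and 9.35 CPM in control libraries a to d, with Nnmt KO library b inside the control range. Its log2 fold change of 0.32 (SE 0.14, unadjusted p = 0.0447, adjusted p = 0.383 by edgeR's test) was the smallest of the 6 higher genes.

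Mdm2, the ligase that p53 induces and that degrades p53, did not differ beyond the spread between libraries. It was at 26.2, 18.9, 24.2 and 21.9 CPM in Nnmt KO libraries a to d and at 19.6, 19.5, 20.02 and 25.8 CPM in control libraries a to d. Both genotypes covered nearly the same range, and control library d stood above the other controls. Its log2 fold change was 0.10, with a 95% interval from -0.19 to 0.40 (unadjusted p = 0.462 by edgeR).

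Phlda3 encodes a pleckstrin homology domain protein that competes with Akt for membrane lipids and is induced by p53. It was at 19.2, 8, 7.64 and 9.26 CPM in Nnmt KO libraries a to d and at 5.46, 3.71, 5.88 and 4.50 CPM in control libraries a to d. All 4 Nnmt KO libraries were above the controls, and library a was at 2.31 times the mean of the other 3. The difference was the largest of the 10 genes, with a log2 fold change of 1.17 (SE 0.29, unadjusted p = 0.00189, adjusted p = 0.114 by edgeR's test), from 4.89 ± 0.974 to 11 ± 5.49 CPM (SD, n = 4). Without Nnmt KO library a it was 0.76 (SE 0.18, unadjusted p = 0.0014 by edgeR). DESeq2's Wald test on all libraries gave an adjusted p of 0.00545.

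Bbc3 encodes PUMA, a BH3-only protein that starts apoptosis at the mitochondrion, and was the 1 gene of the 10 that was lower at an unadjusted p under 0.05. It was at 4.77, 4.27, 5.53 and 4.09 CPM in Nnmt KO libraries a to d and at 9.07, 5.84, 8.58 and 8.57 CPM in control libraries a to d. Every Nnmt KO library was below every control, with control library b the closest. The mean was 8.02 ± 1.47 CPM for control and 4.67 ± 0.644 CPM for Nnmt KO (SD, n = 4), or 58.2% of control. On the log2 scale this was -0.78 (SE 0.18, unadjusted p = 0.000947, adjusted p = 0.0907 by edgeR's test), and DESeq2's Wald test gave an adjusted p of 0.00354. The gene (ENSMUSG00000002083) lies at chr7:16308393-16318205 on the plus strand. Chromosome 7 had a median log2 fold change of -0.14 over 1154 genes tested, the other chromosomes of the 10 genes between -0.03 and 0.09. Within 5 Mb of Bbc3, 108 genes had a median of -0.09, and 0.926% of them were lower than Bbc3.

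Bax, whose product opens the outer mitochondrial membrane, lies on the same chromosome (chr7:45461697-45466898, minus strand) and did not differ. It was at 37.9, 29.0, 28.3 and 26.6 CPM in Nnmt KO libraries a to d and at 31.7, 27.9, 32.3 and 28.8 CPM in control libraries a to d. The genotypes overlapped, and Nnmt KO library a was the highest of all 8. The log2 fold change was 0.01 (95% interval -0.26 to 0.29, unadjusted p = 0.912 by edgeR) and took the other sign, -0.11, without that library. The gene Gm45808 shares 192 of the 1576 exon bases of Bax on the same strand, so that its reads cannot be told apart there.

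Fas encodes the receptor of Fas ligand, which is present on hepatocytes and can kill them. It was at 13.7, 12.4, 12.6 and 12.2 CPM in Nnmt KO libraries a to d and at 13.8, 16.4, 15.3 and 12.5 CPM in control libraries a to d. All 4 Nnmt KO libraries were below the control mean, but the ranges overlapped. Fas had a log2 fold change of -0.19 (95% interval -0.45 to 0.07, unadjusted p = 0.143 by edgeR).

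Tnfrsf10b encodes the mouse receptor for TRAIL and had the lowest level of the 10 genes per length. It was at 5.09, 2.19, 2.2 and 2.62 CPM in Nnmt KO libraries a to d and at 1.74, 1.10, 1.72 and 1.87 CPM in control libraries a to d. Each Nnmt KO library was above each control, and library a was at 2.18 times the mean of the other 3. The log2 fold change was 0.91 (SE 0.31, unadjusted p = 0.0128, adjusted p = 0.245 by edgeR's test) with all libraries and 0.54 (SE 0.24, unadjusted p = 0.0477 by edgeR) without Nnmt KO library a. Both death receptor genes were thus measured in every library, and only Tnfrsf10b was higher at an unadjusted p under 0.05. A difference between the 2 genes was not tested.

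**Figure D2:**
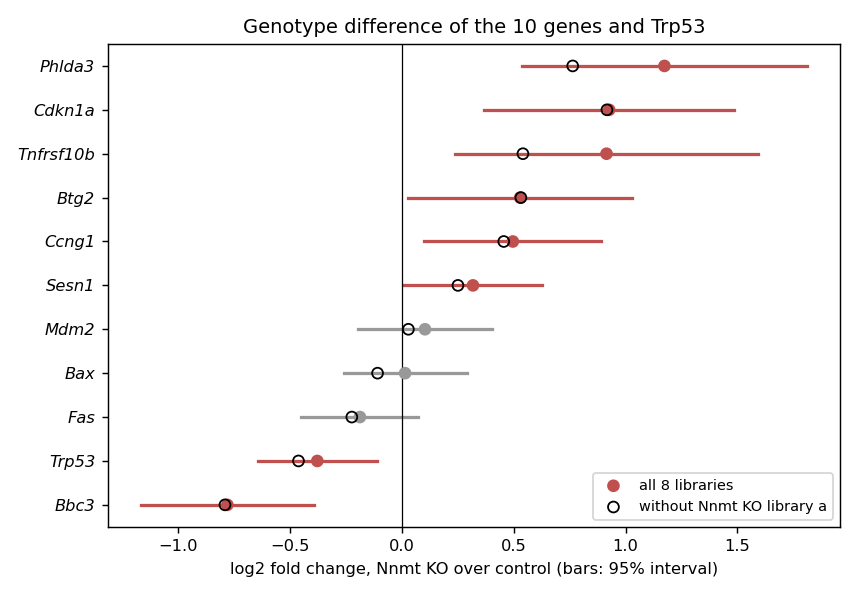
Log2 fold change (Nnmt KO over control) of the 10 genes and of Trp53, with 95% intervals from edgeR's test, n = 4 per genotype. Red points had an unadjusted p under 0.05 and open circles are the fit without Nnmt KO library a, which moved Phlda3 from 1.17 to 0.76 and Tnfrsf10b from 0.91 to 0.54 and left Cdkn1a at 0.92 and Bbc3 at -0.79.

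Nnmt KO library a had the highest value of its genotype for 6 of the 10 genes, Bax, Fas, Mdm2, Phlda3, Sesn1 and Tnfrsf10b, and the lowest for none. It also had the highest TMM factor of the 8 libraries (1.21), and its summed markers differed from those of libraries b to d. Its 6 hepatocyte markers summed to 61831 CPM beside 96539 to 110530 CPM in the other Nnmt KO libraries. Its 6 stellate cell markers summed to 681 CPM beside 321 to 394 CPM, its 5 cholangiocyte markers to 278 CPM beside 88.8 to 177 CPM, its 6 macrophage markers to 703 CPM beside 516 to 536 CPM, and its 5 lymphocyte markers to 16.9 CPM beside 8.36 to 13 CPM. Its neutrophil markers summed to 13.6 CPM beside 4.73 to 7.31 CPM. The endothelial sum was lower in library a, at 152 CPM beside 164 to 175 CPM, and the erythroid sum of 559 CPM lay within the 465 to 600 CPM of the others. Such sums follow their most abundant markers. In library a, Alb alone was at 48513 of the 61831 hepatocyte CPM, and Spp1 at 243 of the 278 cholangiocyte CPM. In control libraries the sums ran from 72904 to 111032 CPM for hepatocytes, 257 to 441 CPM for stellate cells, 49.9 to 167 CPM for cholangiocytes, 350 to 678 CPM for macrophages and 5.29 to 12.7 CPM for lymphocytes. The summed ranges of all 8 marker lists overlapped between the genotypes, but some lists leaned to one side. All 5 lymphocyte, 5 cholangiocyte and 6 stellate cell markers had a log2 fold change above 0, with medians of 0.62, 0.30 and 0.30. Their mean sums differed by 0.52, 0.81 and 0.37 on the log2 scale, the cholangiocyte sum being mostly Spp1. Of these markers, Cd3g (1.17, unadjusted p = 0.00709 by edgeR), Epcam (0.80, unadjusted p = 0.0243 by edgeR), Dcn (0.41, unadjusted p = 0.0277 by edgeR) and Lrat (0.34, unadjusted p = 0.0398 by edgeR) were higher, as 5.45% of all genes were at an unadjusted p under 0.05. Cd3g and Cd79a did not overlap between genotypes, as for 3.34% of all genes in this direction. Both had low counts, with Cd3g at 22 to 56 counts in control libraries. Cd79a was at 0.582 CPM in Nnmt KO library b and at 0.576 CPM in control library c. Cd3g also passed DESeq2's Wald test (adjusted p = 0.0444). Without Nnmt KO library a, 5 lymphocyte, 3 cholangiocyte and 2 stellate cell markers were above 0, and Cd3g alone of these was higher at an unadjusted p under 0.05. Endothelial (152 to 175 CPM), neutrophil (4.73 to 13.6 CPM, Ly6g at 0 in all libraries) and erythroid (465 to 600 CPM) markers in Nnmt KO mice also overlapped the controls (123 to 237, 5.11 to 12.9 and 494 to 783 CPM). All 4 erythroid markers had a log2 fold change below 0 (median -0.18), 1 of them with an unadjusted p under 0.05 by edgeR. Of 6 macrophage markers 5 were above 0 (median 0.25), and of 5 endothelial markers 4 were below 0 (median -0.07), none at that limit. The part of other cell types in the values of the 10 genes, in library a or between the genotypes, was not tested. Without it, 4 of the 10 genes were higher (Phlda3, Cdkn1a, Ccng1 and Tnfrsf10b) and Bbc3 was lower at an unadjusted p under 0.05, where 5.84% and 7.42% of all genes were.

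Per length, Bax and Cdkn1a were the most abundant of the 10 transcripts. In control mice, CPM per kb of merged exons was 19.1 ± 1.36 for Bax, 13.4 ± 5.67 for Cdkn1a, 9.28 ± 2.52 for Btg2, 7.02 ± 0.833 for Fas and 5.69 ± 1.37 for Ccng1 (SD, n = 4). It was 4.18 ± 0.595 for Mdm2, 3.77 ± 0.693 for Bbc3, 3.13 ± 0.625 for Phlda3, 2.22 ± 0.266 for Sesn1 and 0.294 ± 0.0634 for Tnfrsf10b. With Trp53 placed at 10.2 ± 0.987 between Cdkn1a and Btg2, each gene's control libraries overlapped those of the next in this order, except that Sesn1 was above Tnfrsf10b in every control library. In Nnmt KO mice Cdkn1a came first, at 25.5 ± 0.726, before Bax at 19.3 ± 3.22. Bbc3, at 2.2 ± 0.303, was then the lowest but for Tnfrsf10b, at 0.555 ± 0.255.

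Trp53, which encodes p53 itself, was lower in the Nnmt KO group at an unadjusted p under 0.05. It was at 37.3, 32.8, 30.7 and 26.8 CPM in Nnmt KO libraries a to d and at 45.7, 38.2, 37.9 and 44.0 CPM in control libraries a to d. No Nnmt KO library reached the lowest control, although library a came close. Trp53 had a log2 fold change of -0.38 (SE 0.12, unadjusted p = 0.00966, adjusted p = 0.218 by edgeR's test). The log2 fold change was above 0 for 8 of the 10 target genes and for 52.3% of all genes, and p53 protein, whose amount is set mainly by its stability, was not measured here. Of 21 genes listed for p53 and its regulators, 19 were tested, with a median log2 fold change of 0.06. At an unadjusted p under 0.05, 2 were higher and 1 was lower, where 5.45% and 7.13% of all genes were. Trp53bp1, a chromatin reader at DNA breaks that also binds p53, went from 12.3 ± 1.63 to 16.3 ± 2.22 CPM (log2 fold change 0.41, unadjusted p = 0.0139 by edgeR). Atm, the kinase that signals DNA breaks to p53, went from 5.36 ± 1.06 to 7.13 ± 1.13 CPM (0.41, unadjusted p = 0.0412 by edgeR), and lost that limit without Nnmt KO library a (0.30, unadjusted p = 0.117 by edgeR). The p53 relatives Trp63, with 28 counts over the 8 libraries, and Trp73, with 0, were below the filter on low counts.

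A list of 38 other genes known as p53 targets was written from general knowledge, with earlier results of these data known, and all were tested. At an unadjusted p under 0.05, 8 were higher and 6 lower in the Nnmt KO group, where 5.45% and 7.13% of all genes were. Of the 38, 4 lay higher and 2 lower without overlap between genotypes, as did 3.34% and 4.81% of all genes. Their median log2 fold change was 0.17, beside 0.02 over all genes. By DESeq2's Wald test 3 were higher and 2 lower at an adjusted p under 0.05, and by edgeR's none passed that limit. Of all genes, 3.28% passed it in either direction by DESeq2 and 0.32% by edgeR. Plk3, a stress-responsive polo-like kinase, was at 177, 147, 313 and 184 CPM in Nnmt KO libraries a to d and at 99.2, 151, 100.3 and 66.8 CPM in control libraries a to d. Nnmt KO library b lay just below control library b, and the other 3 lay above every control. The means were 104 ± 34.6 and 205 ± 73.7 CPM for control and Nnmt KO (SD, n = 4), with a log2 fold change of 0.98 (SE 0.27, unadjusted p = 0.00379, adjusted p = 0.149 by edgeR's test). Zmat3, which encodes an RNA-binding protein, and Ephx1, which encodes microsomal epoxide hydrolase, had log2 fold changes of 0.49 and 0.50 (unadjusted p = 0.00583 and 0.00738 by edgeR), without overlap. For Ephx1 the means were 390 ± 61.2 CPM (control) and 553 ± 83.2 CPM (Nnmt KO).

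Among the lower genes of this list, Gadd45a, which encodes a growth arrest and stress sensor, was at 3.42, 2.37, 3.15 and 3.10 CPM in Nnmt KO libraries a to d. In control libraries a to d it was at 7.36, 4.22, 6.82 and 6.13 CPM. The groups did not overlap. Its log2 fold change was -1.03 (SE 0.20, unadjusted p = 0.000368, adjusted p = 0.0711 by edgeR's test), and in the fit without Nnmt KO library a it was -1.09 and passed the adjusted limit (adjusted p = 0.0454 by edgeR's test). Steap3, an endosomal iron reductase, went from 37.3 ± 4.09 to 26.2 ± 4.42 CPM (log2 fold change -0.51, unadjusted p = 0.00323 by edgeR). Ninj1, which acts in the rupture of dying cells, had a log2 fold change of -0.33 (unadjusted p = 0.0191 by edgeR), without overlap. Dcxr, a xylulose reductase, had one of -0.51 (unadjusted p = 0.022 by edgeR) and missed the limit without Nnmt KO library a (unadjusted p = 0.0531 by edgeR).

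**Figure D3:**
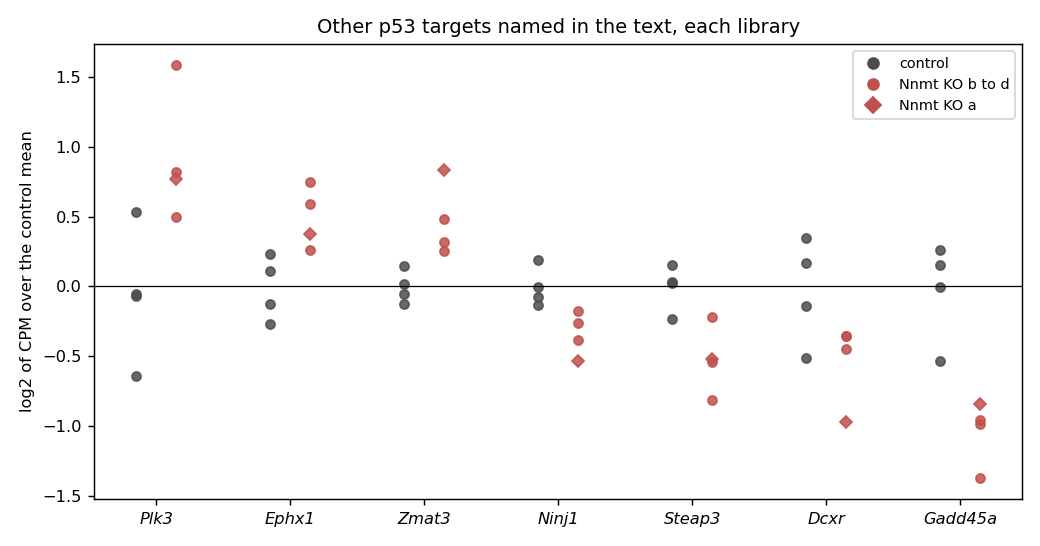
The 7 named other p53 targets in each library, as log2 of CPM over the control mean, for control (grey) and Nnmt KO (red) libraries, with Nnmt KO library a as a diamond. Ephx1 and Zmat3 lay above every control library and Gadd45a and Ninj1 below, while Plk3, Steap3 and Dcxr overlapped.

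In the 3 lists of further apoptosis genes, 4 of 38 entries had an unadjusted p under 0.05, where 12.6% of all genes did. Of 13 listed relatives of BCL2, 12 were tested, and 1 was higher and 1 lower at an unadjusted p under 0.05 (median log2 fold change 0.05). Bcl2, which protects from apoptosis, was at 3.30, 2.18, 2.16 and 2.51 CPM in Nnmt KO libraries a to d and at 1.33, 0.964, 1.84 and 1.65 CPM in control libraries a to d. It did not overlap between genotypes, with a log2 fold change of 0.81 (SE 0.26, unadjusted p = 0.00905, adjusted p = 0.213 by edgeR's test). Bik, which promotes apoptosis, had a log2 fold change of -0.46 (unadjusted p = 0.0496 by edgeR), from 2.31 ± 0.384 to 1.68 ± 0.165 CPM, and missed the limit without Nnmt KO library a (unadjusted p = 0.0715 by edgeR). Hrk, with 7 counts in all, was below the filter, and Bid and Pmaip1 of this list are also among the 38 targets.

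Of 10 genes of death receptor signalling, 9 were tested, none higher and 2 lower at an unadjusted p under 0.05 (7.13% of all genes were lower), with a median log2 fold change of -0.09. Fasl, with 82 counts in all, was below the filter. Fadd, the adaptor that links Fas and the TRAIL receptor to caspase 8, was at 13.3, 14.5, 13.4 and 8.66 CPM in Nnmt KO libraries a to d and at 23.1, 20.3, 17.4 and 21.3 CPM in control libraries a to d. All Nnmt KO libraries were below the controls, with a log2 fold change of -0.72 (SE 0.16, unadjusted p = 0.00106, adjusted p = 0.0911 by edgeR's test). DESeq2's Wald test gave Fadd an adjusted p of 0.00659. Fadd lies on chromosome 7 as well. Tradd, the adaptor of the TNF receptor, went from 18.5 ± 1.2 to 14.7 ± 0.883 CPM, also without overlap (log2 fold change -0.32, unadjusted p = 0.00944 by edgeR). None of 17 caspases, inhibitors and executioners had an unadjusted p under 0.05 (median log2 fold change 0.03), and the smallest p values were those of Dffa (0.0846, log2 fold change -0.29) and Endog (0.117, -0.36), both nuclease-related, by edgeR.

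Of 10 paralogs of the 10 genes, such as Cdkn1b, Ccng2, Sesn2 and Btg1, none was higher and 1 was lower at an unadjusted p under 0.05. Over all genes, 5.45% were higher and 7.13% lower at that limit. The median log2 fold change of the paralogs was -0.06 and became 0.01 when counts were scaled by library size only. The lower one was Phlda1, from 39.4 ± 5.22 to 27.6 ± 5.99 CPM (log2 fold change -0.52, unadjusted p = 0.0085 by edgeR), without overlap. Phlda1 and Phlda3 are related proteins, and here their log2 fold changes had opposite signs.

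Genes of the cell cycle that p21 represses, through the complexes that silence them in arrested cells, were followed as a list of 13. With all libraries, 7 had a positive and 6 a negative log2 fold change, none at an unadjusted p under 0.05, and the median log2 fold change was 0.08. Ccnb2 (0.30, unadjusted p = 0.451) and Bub1 (-0.66, unadjusted p = 0.467, both by edgeR) had the smallest p. Their summed level was 79.4, 35.7, 17.2 and 26.4 CPM in the 4 Nnmt KO libraries and 30.3, 36.2, 50.1 and 37.7 CPM in the 4 controls, each from a to d. Nnmt KO library a stood far above every other library and held the highest value of its genotype for all 13 genes. Without library a, the log2 fold changes of all 13 were negative, and the median was -0.41. Of the 13, 4 had an unadjusted p under 0.05 by edgeR, where 7.42% of all genes were lower in that fit. Without Nnmt KO library c or d, 12 of the 13 were positive, with medians of 0.31 and 0.15 and 0 genes at that limit. With any other library left out, the median lay between -0.05 and 0.14. Cdkn1a itself was at 92.5 CPM in library a, within the 87.4 to 92.9 CPM of its genotype.

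**Figure D4:**
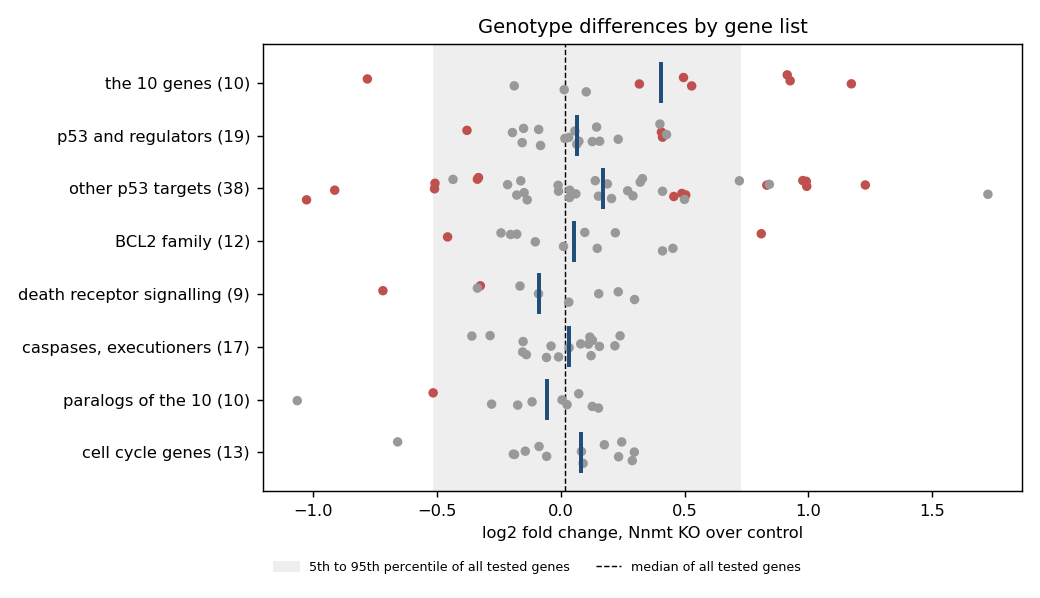
Log2 fold change (Nnmt KO over control, all 8 libraries) of every tested gene in 8 lists, with the number of genes in brackets, blue bars for medians and red points for an unadjusted p under 0.05 by edgeR. The grey band runs from the 5th to the 95th percentile of all tested genes, -0.51 to 0.72, and the median of the 10 genes, 0.41, lies highest of the 8 lists. All 8 lists were chosen with earlier results of these data known.

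The genes whose pattern over the 8 libraries was nearest to that of Cdkn1a, by the root mean square difference of centred log2 CPM, were D730003I15Rik (0.23), Slc25a25 (0.25), Hspa2 (0.27), Mkrn3 (0.28) and Acrbp (0.29). The same measure for Cdkn1a against a flat line was 0.66. Slc25a25 encodes a mitochondrial carrier of ATP-Mg and phosphate. It was at 352, 343, 453 and 367 CPM in Nnmt KO libraries a to d and at 126, 338, 208 and 114 CPM in control libraries a to d. As for Cdkn1a, control b was the highest and controls a and d were the lowest of their genotype. The other 4 had control means between 0.122 and 1.25 CPM. These are the same 5 genes when counts are scaled by library size only, and the likeness is a description over 8 libraries that share the genotype difference.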

How the data were processed

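Liver RNA of 4 Nnmt KO and 4 control mice was sequenced as paired-end libraries. Per the labels and the study's methods, the authors aligned reads with HISAT2, and the submitters' processing notes also name StringTie and mm10. They deposited raw counts per gene for 33212 genes. The annotation, the strand setting and how the counts were made are not given in the sources used here. The labels and the methods name different library kits. Reads of overlapping genes could be assigned differently by other counting methods.

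Genes were kept by filterByExpr (minimum count 10), which left 15291. TMM scaling and the quasi-likelihood test were run in edgeR 4.0.16 (R 4.3.3) on all 8 libraries without covariates, with Benjamini-Hochberg adjustment over all tested genes. SE is the log2 fold change over the square root of F, and CPM carry the TMM factors. DESeq2, which the authors also used without stating a version, was run here in version 1.42.0 as an alternative. Other scalings, no filter and each library left out were further alternatives. Log2 CPM had a prior count of 2. The tests were tried on simulated data. Positions came from GENCODE M21 (GRCm38), matched by Ensembl ID for 15146 of the tested genes. The labels give no batch.

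The 10 genes and all lists were chosen with earlier results of these data known. All 10 are named, with Trp53, Nnmt, the 5 genes most like Cdkn1a and, of each list, up to 4 genes in each direction with an unadjusted p under 0.05, or else the 2 with the smallest p. A gene that meets this rule is not reported here, though the counts over its list include it. The authors' high-fat diet data were not analysed here.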

Additional observations from a re-analysis of the deposited data

Results flagged for a closer look

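In 5 of the 72 sets of 4 libraries examined (each named gene in each genotype), 1 library lay far from the other 3, with a gap to its nearest neighbour, as a share of the set's range, above Dixon's 95% critical value. Chance gives about 3.6 such sets. Phlda3 in Nnmt KO library a was at 19.2 CPM, where the other 3 were at 7.64 to 9.26 CPM. Tnfrsf10b in the same library was at 5.09 CPM beside 2.19 to 2.62 CPM, and Hspa2, one of the genes most like Cdkn1a, was lowest there, at 1.98 CPM beside 2.62 to 2.71 CPM. Mdm2 in control library d was at 25.8 CPM, where the other controls were at 19.5 to 20.02 CPM. Bbc3 in control library b was at 5.84 CPM, where the other controls were at 8.57 to 9.07 CPM, so that this control was the nearest to the Nnmt KO libraries.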

How the results depend on the processing

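Cdkn1a (log2 fold change 0.74 to 1.16), Phlda3 (0.76 to 1.31), Tnfrsf10b (0.54 to 1.04) and Bbc3 (-0.89 to -0.70) kept their direction and an unadjusted p under 0.05 in all 12 alternatives. Trp53 did so in 11, Ccng1 in 10, Btg2 in 7 and Sesn1 in 5. Bax changed sign without Nnmt KO replicate a (-0.11) and without control replicates b or d (-0.01 for each), and reached 0.0733 with a replicate left out and 0.09 over all alternatives. At an adjusted p under 0.05, DESeq2's Wald test counted 3 of the 10 genes where edgeR counted 0, with 6 higher and 1 lower at an unadjusted p under 0.05 in both, and gave Nnmt an adjusted p of 0.00484 at -1.28. At an unadjusted p under 0.01, 2 genes were higher in place of 6 (4.51% of all genes passed that limit in either direction). Scaling by library size only took the genes with no overlap in the lower direction from 1 to 0 and the median of the caspase list from 0.03 to 0.10, and made 56.9% of all calls at an unadjusted p under 0.05 higher, where TMM made 43.3%. The median of all genes stayed between -0.00 and 0.07.

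With each replicate left out, the higher genes numbered 3 to 6 (3 without Nnmt KO replicate d, where 4.68% of all genes were higher) and the lower 1. Those without overlap numbered 3 to 5 higher (5 without Nnmt KO replicate b) and 1 to 2 lower (2 without control replicate d). Of all genes, 4.87% were higher without overlap in the first of these fits and 8.03% lower in the second, beside 3.34% and 4.81% with all libraries. Of the other p53 targets, 7 to 10 were higher and 3 to 6 lower (3 without control replicate a). Over these fits, 4.12% to 7% of all genes were higher and 3.97% to 7.6% lower at an unadjusted p under 0.05. List medians were 0.32 to 0.45 for the 10 genes, -0.00088 to 0.0902 for caspases, -0.41 to 0.31 for cell cycle genes and -0.14 to 0.0413 for death receptor signalling over the genes tested in each fit, the highest without control replicate d. Fasl passed the filter in that fit, in those without the other control replicates and in that without Nnmt KO replicate a, and over the other 9 genes the range was -0.15 to -0.05. Nnmt ran from -1.52 to -0.94. Over all genes, 6 to 149 passed an adjusted p of 0.05, 149 without Nnmt KO replicate a. The cause of these shifts was not tested. No paired analysis was possible because the columns of the count table carry no mouse numbers. Tnfrsf10b, the least counted of the 10 genes, had 1547 counts over the 8 libraries, and how far depth limited the intervals was not tested.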
